A study of Mus musculus with 6 samples.

Results

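The genes described here encode the enzymes of glycolysis and of the tricarboxylic acid (TCA) cycle, together with the carriers Slc2a3 and Slc16a1, which move glucose and lactate across the plasma membrane. They were chosen by name, as a list of 36 gene symbols, and were found by symbol among the 25576 genes listed in the expression files. All 36 were listed in each of the 6 libraries and passed the filter on low values. The libraries hold RNA of whole spinal cord of FVB mice at postnatal day 4. The mice model spinal muscular atrophy (SMA), in which motor neurons degenerate for lack of the SMN protein. The SMA mice had the genotype mSmn-/-, hSMN22tg/0 (no functional mouse Smn, with a human SMN2 transgene), and the control mice were mSmn+/-, hSMN22tg/0, so that both groups carried the transgene and the controls were heterozygous for the knockout and not wild type. There were 3 libraries in each group. Nothing in the labels says that the replicates of a group came from separate animals, and the study's methods give triplicates with n = 1 per group, so p-values measure the spread between these samples, which may be technical.

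Glycolysis breaks glucose down to pyruvate in the cytosol, with a preparatory phase that spends ATP and a payoff phase that regains it. Pyruvate is then reduced to lactate by lactate dehydrogenase, or enters the mitochondrion, where the pyruvate dehydrogenase complex and pyruvate carboxylase feed it into the TCA cycle. In nervous tissue, neurons depend heavily on oxidative metabolism, astrocytes are rich in glycolytic enzymes, and oligodendrocytes and the endothelium of blood vessels carry the lactate transporter encoded by Slc16a1. Several steps are catalysed by isozymes that mark different tissues, such as the liver form of pyruvate kinase.

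Expression was given as FPKM, in which the fragments of a gene are scaled by its length and by the size of the library, so that levels of different genes can be compared. The groups were compared on log2(FPKM + 1) with limma, a linear model for each gene whose variance is moderated over all genes, and every log2 fold change below is SMA against control on that scale. A gene is said to be called when its unadjusted p was under 0.05; no member of the list passed an adjusted p of 0.05, and a call at an unadjusted p is a weaker statement than that. An exact permutation test of a single value cannot give a p below 0.1 with 3 libraries against 3, nor with 3 against 2. Leaving out a further control besides control replicate 2 leaves 1 control library, so the spread there comes from the SMA libraries alone. Whether a call is kept or ends in such a fit says nothing about the spread among controls. The depth in reads is unknown, since the values are not counts. Judged by which ratio between values under 0.15 FPKM occurred most often, depth relative to SMA replicate 1 was 1.15, 1.09 and 1.04 in the controls and 1.02 and 1.0 in SMA replicates 2 and 3.

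Smn1, the targeted gene (ENSMUSG00000021645, GRCm38 chr13:100124852-100137690), was at 10.4, 8.64 and 11.9 FPKM in the controls (replicates 1 to 3 in order) and at 8.48, 9.3 and 11.1 FPKM in the SMA libraries (in the same order). The groups overlapped, with a log2 fold change of -0.09 (limma, standard error 0.15 and adjusted p = 0.819) and of -0.2 without control replicate 2 (standard error 0.12 and adjusted p = 0.614). The value covers the whole gene and cannot show which exons were transcribed, so it leaves the genotype labels unchecked.

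Control replicate 2 stood apart from the other 5 libraries. Its log2(FPKM + 1) values correlated with those of the other libraries at a Pearson r of 0.836 to 0.849, against 0.983 to 0.992 among the other 5, where the points are genes and not replicates. All 30 genes of a list of hepatocyte markers were listed. In control replicate 2 they summed to 37300 FPKM, and in the other libraries to 152 and 114 FPKM (controls 1 and 3) and to 99.4, 177 and 105 FPKM (SMA). Albumin (Alb), the most abundant of them, was at 15900 FPKM in control replicate 2 and between 24.6 and 56.2 FPKM elsewhere. None of these markers was at 0 in control replicate 2, while 2 were at 0 in control replicate 3 (Apoc3 and Proc) and 2 in SMA replicate 3 (Apoc3 and Tdo2). Erythroid markers, of which 11 of 12 were listed and Ahsp was not, summed to 18900 FPKM in control replicate 2 and to between 1120 and 1860 FPKM in the others, with the globin gene Hbb-bs the most abundant. Neuron markers, all 12 of which were listed with Stmn2 the most abundant, summed to 1140 FPKM in that library and to between 1970 and 2130 FPKM in the other 5, and 8 spinal Hox genes, led by Hoxb8, summed to 140 FPKM against 201 to 273 FPKM. Neuronal and Hox transcripts were thus present in all 6 libraries. A minority of the Hox genes, which mark position along the cord, was also called between the groups, at an unadjusted p only. Over all libraries 1 of 8 was called (12.5%, against 5.79% of all genes), Hoxa7, which was higher (0.46). Without control replicate 2 there were 3 of 8 called (37.5%, against 10.5% of all genes), with Hoxa7 higher (0.34) and Hoxc10 (-0.5) and Hoxd10 (-0.66) lower. Control replicate 3 had the highest values of the latter genes, with Hoxd10 at 26.1, 15.1 and 50.7 FPKM in the controls and at 18.2, 27.0 and 24.0 FPKM in SMA. Whether the libraries hold the same levels of the cord, and whether that bears on the genes called only without control replicate 2, was not tested. The comparisons of the 36 genes are therefore given with and without control replicate 2. In whole tissue, fewer cells of a type and less RNA per cell cannot be told apart.

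**Figure D1:**
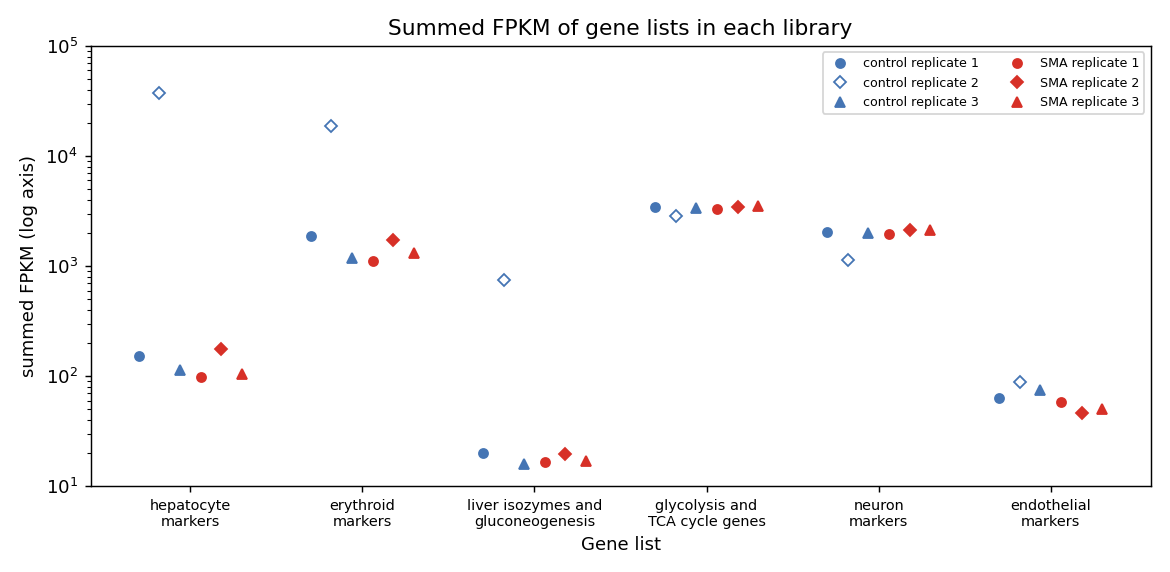
Summed FPKM on a log axis of 6 gene lists in each library (blue, control; red, SMA; the open diamond is control replicate 2). Hepatocyte markers reached 37300 FPKM in control replicate 2 and at most 177 FPKM in the other libraries, while the glycolysis and TCA cycle genes lay between 2850 and 3490 FPKM in all 6.

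Together the 36 genes took up 0.963%, 0.69% and 0.977% of all FPKM in the controls, in the order of the replicates, and 0.908%, 0.949% and 0.948% in the SMA libraries. Control replicate 2 was the lowest, and the SMA libraries lay below control replicates 1 and 3 by less than 0.1 percentage points. In summed FPKM, not divided by the total, the SMA libraries overlapped these controls. The sums were 3480 and 3380 FPKM in control replicates 1 and 3 and 3330, 3460 and 3490 FPKM in SMA. The 15 glycolytic enzymes from hexokinase to pyruvate kinase made up most of this, at 0.591%, 0.377% and 0.601% in the controls and 0.564%, 0.591% and 0.589% in SMA. The 12 genes grouped under the TCA cycle, which include the cytosolic Mdh1, came to 0.213%, 0.154% and 0.219% in the controls. In SMA they came to 0.196%, 0.207% and 0.207%. Levels of single genes spanned from 1.12 FPKM for Hk2 in control replicate 1 to 308 FPKM for Aldoa in control replicate 3.

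**Figure D2:**
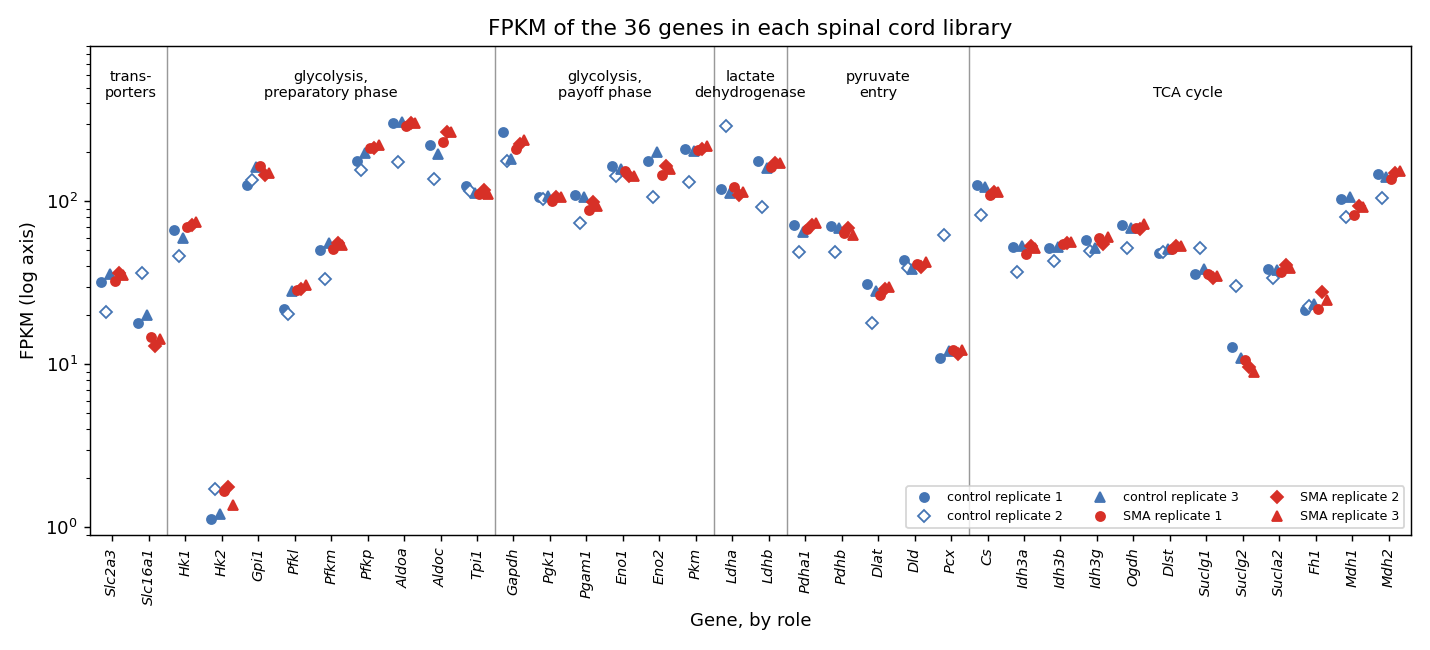
FPKM on a log axis of the 36 genes, ordered by role, in each library (blue, control; red, SMA; the open diamond is control replicate 2). The open diamonds lie lowest for 23 of the 36 genes and highest for 5, Slc16a1, Ldha, Pcx, Suclg1 and Suclg2.

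Over all 6 libraries, 1 of the 36 genes was called lower in SMA (Slc16a1) and 2 were called higher (Pfkl and Aldoc). Of the 17088 genes tested, 2.39% were called lower and 3.4% higher, 5.79% in all, and 0.0% passed an adjusted p of 0.05 (limma, smallest adjusted p = 0.683). Without control replicate 2, 6 of the 36 were called lower (Slc16a1, Pgam1, Eno2, Cs, Suclg2 and Mdh1) and 4 higher (Hk1, Pfkl, Pfkp and Aldoc), while of the 16574 genes tested 5.2% were called lower and 5.27% higher, 10.5% in all, and 2 genes (0.0121%), neither of them among the 36, passed an adjusted p of 0.05. These 36 genes are more highly expressed than most. Among genes that averaged 10 FPKM or more, as 35 of the 36 did, 4.68% of 7136 genes were called over all libraries and 12.5% of 7060 genes without control replicate 2, against 3 and 10 of the 35. No overlap between the groups was seen for 9 of the 36 genes (17.0% of all genes) and, without control replicate 2, for 18 (28.1% of all genes). The median log2 fold change of the 36 was 0.12 over all libraries, where that of all genes was 0.04, and 0.01 without control replicate 2, where that of all genes was 0.0. The split of calls over all genes depended on how libraries were scaled. It was 581 higher and 409 lower as deposited and 528 higher and 565 lower after median-ratio scaling; without control replicate 2 it was 874 higher and 862 lower, and 614 higher and 1517 lower with each library rescaled to the same total.

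**Figure D3:**
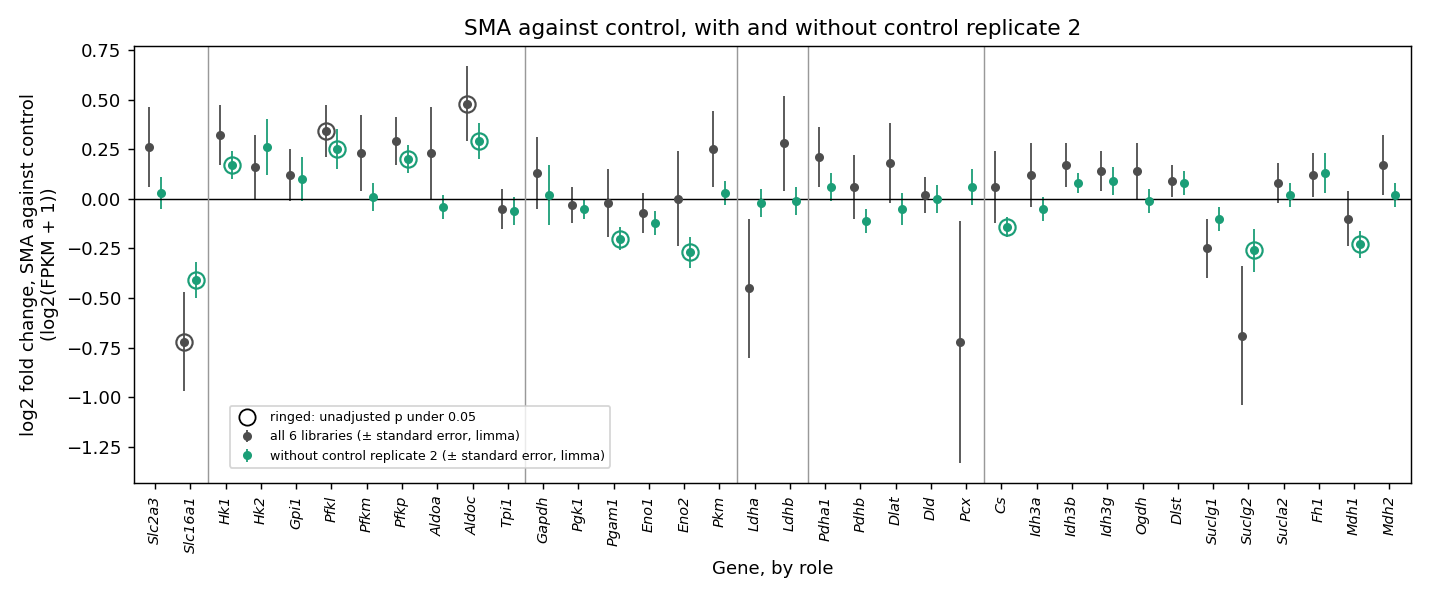
Log2 fold change of SMA against control for the 36 genes, ordered by role, over all 6 libraries (grey) and without control replicate 2 (green), with standard errors from limma; rings mark an unadjusted p under 0.05. Most grey points lie above 0, with a median of 0.12, and the green points lie around 0, with a median of 0.01.

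Slc16a1, Pfkl and Aldoc were the genes called in the same direction with and without control replicate 2, and the sequences around their starts are shown for that reason. They are from RefSeq on GRCm38.p6, 250 bases before to 50 after the RefSeq start, written from 5′ to 3′ on the strand of the gene; 34 of the 36 genes had such an entry, Slc2a3 and Idh3a having none. Slc16a1 is read from the plus strand of chr3:104638414-104638713, Pfkl from the minus strand of chr10:78009758-78010057 and Aldoc from the plus strand of chr11:78322823-78323122. These starts differ from those of the gene spans in the expression files. The RefSeq start is 276 bases downstream of the listed one for Pfkl, whose whole window thus lies inside the listed gene, and 105 bases downstream for Aldoc, while that of Slc16a1 is 4 bases upstream. Capitals mark ACGTG on either strand, a form of the core of the element bound by hypoxia-inducible factors. These letters also overlap the E-box CACGTG. Other forms of the core, such as GCGTG, were neither marked nor counted.
Slc16a1: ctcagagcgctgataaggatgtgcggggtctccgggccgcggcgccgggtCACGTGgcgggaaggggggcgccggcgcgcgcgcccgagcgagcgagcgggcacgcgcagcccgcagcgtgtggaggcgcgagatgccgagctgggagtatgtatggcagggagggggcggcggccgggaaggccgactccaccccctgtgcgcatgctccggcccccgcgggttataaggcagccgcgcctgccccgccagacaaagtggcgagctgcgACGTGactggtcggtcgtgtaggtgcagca
Pfkl: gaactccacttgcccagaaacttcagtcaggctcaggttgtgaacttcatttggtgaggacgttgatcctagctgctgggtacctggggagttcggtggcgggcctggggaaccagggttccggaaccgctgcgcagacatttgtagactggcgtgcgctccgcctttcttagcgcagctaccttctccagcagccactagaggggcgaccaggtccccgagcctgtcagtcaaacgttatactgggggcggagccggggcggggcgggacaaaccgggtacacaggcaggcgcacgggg
Aldoc: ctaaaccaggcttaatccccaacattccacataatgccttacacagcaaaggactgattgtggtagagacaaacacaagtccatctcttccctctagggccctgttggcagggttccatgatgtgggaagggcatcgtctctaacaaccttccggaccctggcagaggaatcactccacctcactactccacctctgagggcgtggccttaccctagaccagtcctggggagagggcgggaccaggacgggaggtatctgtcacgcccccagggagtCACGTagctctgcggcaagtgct
Slc16a1 held 3 matches, of which 2 are the strands of 1 CACGTG, Aldoc held 1 and Pfkl none. Of the 34 windows, 13 held ACGTG (38.2%, against 19.7% of the windows of all 27025 genes) and 4 held CACGTG (11.8% against 7.24%), namely Slc16a1, Pfkm, Ldha and Pcx. The windows of the 34 genes were also richer in G and C, with a median of 60.0% against 52.7%, and how far base composition accounts for the matches was not tested. A match of these letters is not evidence of binding.

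Of the carriers, Slc16a1 was lower in SMA. Slc16a1 encodes MCT1, which carries lactate, pyruvate and ketone bodies together with a proton. It was at 17.9, 36.5 and 20.1 FPKM in the controls (replicates 1 to 3 in order) and at 14.7, 13.0 and 14.3 FPKM in the SMA libraries (in the same order). All 3 SMA libraries lay below all 3 controls, and control replicate 2 was the highest by far. The log2 fold change was -0.72 over all libraries (limma, standard error 0.25 and adjusted p = 0.683) and -0.41 without control replicate 2 (standard error 0.09 and adjusted p = 0.287), where the SMA mean was 0.737 times the mean of control replicates 1 and 3. Over all libraries the call ended when any SMA library was left out (-0.75, -0.67 and -0.73 without SMA replicates 1, 2 and 3). Without control replicate 2 the call was kept under each of 8 other settings and with each SMA library left out. With any further library left out, a control included, the log2 fold change ran from -0.49 to -0.33. Slc2a3, which encodes the neuronal glucose transporter GLUT3, was at 31.9, 20.9 and 36.1 FPKM in the controls and at 32.6, 36.3 and 35.4 FPKM in SMA, with overlapping groups and a log2 fold change of 0.26, or 0.03 without control replicate 2.

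Markers of cell types that carry MCT1 were also called lower in SMA, the endothelial ones in both comparisons. Of 8 endothelial markers, all listed and tested, 4 were called lower in SMA over all libraries and the same number without control replicate 2, and none higher, where 2.39% and 5.2% of all genes were called lower. They were Pecam1, Cldn5, Kdr and Tek in both. The list summed to 63.4, 88.3 and 75.3 FPKM in the controls (replicates 1 to 3 in order) and to 57.8, 46.1 and 50.4 FPKM in the SMA libraries (in the same order), and no marker was at 0. Cldn5, a tight junction gene and the most abundant of them, was at 25.8, 20.4 and 25.0 FPKM in the controls and at 16.4, 15.7 and 14.4 FPKM in SMA (log2 fold change -0.58, or -0.68 without control replicate 2). Of 10 oligodendrocyte lineage markers none was called over all libraries and 3 were called lower without control replicate 2 (Pdgfra, Mag and Cnp), against the same 5.2% of all genes. Their sum, led by Mbp, was 937, 891 and 1340 FPKM in the controls and 768, 922 and 947 FPKM in SMA, and none was at 0. The part of endothelial cells, oligodendrocytes or hepatocyte transcripts in the values of Slc16a1 was not tested.

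In the preparatory phase of glycolysis, Hk1, Pfkl, Pfkp and Aldoc had higher values in all 3 SMA libraries than in all 3 controls, 4 of 9 genes, where 17.0% of all genes did not overlap in either direction. Of the 9, 2 were called higher over all libraries (Pfkl and Aldoc) and 4 without control replicate 2, against 3.4% and 5.27% of all genes. None was called lower in either, and the median log2 fold change was 0.23 and 0.17. Aldoc encodes the aldolase of brain, which is enriched in astrocytes. It was at 222, 138 and 195 FPKM in the controls and at 232, 267 and 265 FPKM in SMA. Its log2 fold change was 0.48 over all libraries (limma, standard error 0.19 and adjusted p = 0.683) and 0.29 without control replicate 2 (standard error 0.09 and adjusted p = 0.366). The first call ended without control replicate 3 (0.54), without each SMA replicate (0.55, 0.45 and 0.45), with no filter (0.48), after rescaling to the same total (0.51), after quantile normalization (0.49) and with the replicate block (0.48). The second ended without control replicate 3 (0.19) and with the replicate block (0.25).

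Astrocyte markers, given beside Aldoc, showed no common direction. All 10 were listed, and their sum, led by Atp1b2, was 804, 634 and 796 FPKM in the controls and 782, 839 and 770 FPKM in SMA. Over all libraries 1 of 10 was called, Atp1b2, which was higher (3.4% of all genes were). Without control replicate 2 this gene was called higher and Aqp4 and S100b lower (3 of 10, against 10.5% of all genes). No marker was at 0 in any library. Aldoa, the aldolase of muscle and most other tissues and the most abundant of the 36 genes, was at 303, 175 and 308 FPKM in the controls and at 289, 302 and 302 FPKM in SMA. The value of control replicate 2 was 0.574 times the mean of the other controls, and the log2 fold change went from 0.23 to -0.04 when that library was left out.

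Phosphofructokinase catalyses the committed step of glycolysis and is built from liver (Pfkl), muscle (Pfkm) and platelet (Pfkp) type subunits, of which Pfkp was the most abundant here. Pfkl was at 21.8, 20.4 and 28.1 FPKM in the controls and at 28.8, 29.2 and 30.7 FPKM in SMA. The groups did not overlap, but control replicate 3 lay close to the SMA libraries. The log2 fold change was 0.34 (limma, standard error 0.13 and adjusted p = 0.683) and 0.25 without control replicate 2 (standard error 0.1 and adjusted p = 0.475). The call over all libraries ended without control replicate 1 (0.29) and without each SMA replicate (0.35, 0.35 and 0.31), and after rescaling to the same total (0.37). The call without control replicate 2 ended without control replicate 1 (0.07), without each SMA replicate (0.26, 0.26 and 0.22) and in 5 of 8 other settings. Pfkp was at 178, 156 and 199 FPKM in the controls and at 212, 214 and 222 FPKM in SMA, a log2 fold change of 0.29 that was not called over all libraries and of 0.2 that was called without control replicate 2 (adjusted p = 0.405 from limma). That call ended without control replicate 1 (0.12), SMA replicate 2 (0.2) or SMA replicate 3 (0.18), with the replicate block (0.2), after quantile normalization (0.17) and after rescaling to the same total (0.15). Pfkp overlaps Pitrm1, which was at a mean of 8.57 FPKM. Pfkm had overlapping groups and log2 fold changes of 0.23 and 0.01.

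Hk1, the hexokinase that traps glucose in most brain cells, was at 67.1, 46.2 and 59.9 FPKM in the controls and at 69.3, 71.2 and 74.4 FPKM in SMA. All SMA values were above all control values, with a log2 fold change of 0.32 that was not called and, without control replicate 2, of 0.17 that was (adjusted p = 0.443 from limma). The latter call ended without control replicate 3 (0.09), SMA replicate 2 (0.18) or SMA replicate 3 (0.15), after rescaling to the same total (0.12) and with the replicate block (0.18). Hk2, the hexokinase of muscle and fat, was between 1.12 and 1.77 FPKM in all libraries, with log2 fold changes of 0.16 and 0.26 that were not called. Gpi1, which converts glucose phosphate to fructose phosphate, and Tpi1, which interconverts the triose phosphates, had overlapping groups. Their log2 fold changes were 0.12 and 0.1 for Gpi1 and -0.05 and -0.06 for Tpi1.

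In the payoff phase none of 6 genes was called over all libraries, and without control replicate 2 Pgam1 and Eno2 were called lower (2 of 6, against 5.2% of all genes) and none higher. The median log2 fold change was -0.01 and -0.09. Eno2, known as neuron-specific enolase, was at 177, 106 and 200 FPKM in the controls and at 146, 165 and 157 FPKM in SMA. With control replicate 2 the groups overlapped, at a log2 fold change of 0.0. Without it the SMA libraries were all below the controls, at -0.27 (limma, standard error 0.08 and adjusted p = 0.36), a call that ended when control replicate 3 was left out as well (-0.18). Pgam1, phosphoglycerate mutase, was at 109, 74.2 and 107 FPKM in the controls and at 88.7, 99.7 and 94.3 FPKM in SMA. Its log2 fold change was -0.02, and -0.2 without control replicate 2 (limma, standard error 0.06 and adjusted p = 0.386). The call without control replicate 2 was kept under all 8 other settings and with each SMA library left out. With any further library left out, a control included, the log2 fold change ran from -0.24 to -0.16.

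Neuron markers, given beside Eno2, were not lower in SMA. None of the 12 was called over all libraries, and without control replicate 2 there were 3 called higher (Syt1, Rbfox3 and Slc32a1, against 5.27% of all genes) and none lower. Their sums in SMA were 1970, 2130 and 2120 FPKM, and 2040 and 1990 FPKM in control replicates 1 and 3. Stmn2 was at 459, 235 and 416 FPKM in the controls and at 426, 468 and 459 FPKM in SMA, with log2 fold changes of 0.34 and 0.05 that were not called.

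Gapdh, the dehydrogenase that opens the payoff phase, was at 267, 177 and 182 FPKM in the controls and at 210, 225 and 238 FPKM in SMA. The controls spread widely around the SMA values, with log2 fold changes of 0.13 and 0.02 that were not called. The size of the change depended on which control was left out, and its direction turned when control replicate 1 was the only control. Gapdh was called higher without control replicate 1 (0.32). Its log2 fold change was 0.3 with control replicate 3 as the only control and -0.26 with control replicate 1 as the only control. Its level is uncertain because 77 other genes hold a stretch of at least 300 bases with at least 95% identity to its transcript. Of these 59 were listed, with a summed mean of 591 FPKM against 217 FPKM for Gapdh itself, and Gm13394 alone was at 241 FPKM. With these genes added, Gapdh came to 869, 678 and 766 FPKM in the controls and to 824, 841 and 867 FPKM in SMA. The groups overlapped, with log2 fold changes of 0.14 and 0.05. Reads of these copies cannot be told apart from those of Gapdh where the sequence is the same.

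Eno1, the enolase of most tissues, likewise shares sequence with 3 genes at a summed mean of 83.9 FPKM, Gm4735 and Eno1b among them. Alone it was between 143 and 164 FPKM in all libraries, with log2 fold changes of -0.07 and -0.12 that were not called, and with these genes added they were -0.06 and -0.12. Pgk1, phosphoglycerate kinase, was between 100 and 108 FPKM in all libraries, with log2 fold changes of -0.03 and -0.05. Pkm, the pyruvate kinase of muscle and brain, was between 205 and 219 FPKM in 5 libraries and at 132 FPKM in control replicate 2, with log2 fold changes of 0.25 and 0.03. Copies of Pgk1, Pgam1 and Ldhb were at summed means of 9.22, 6.02 and 13.1 FPKM.

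**Figure D4:**
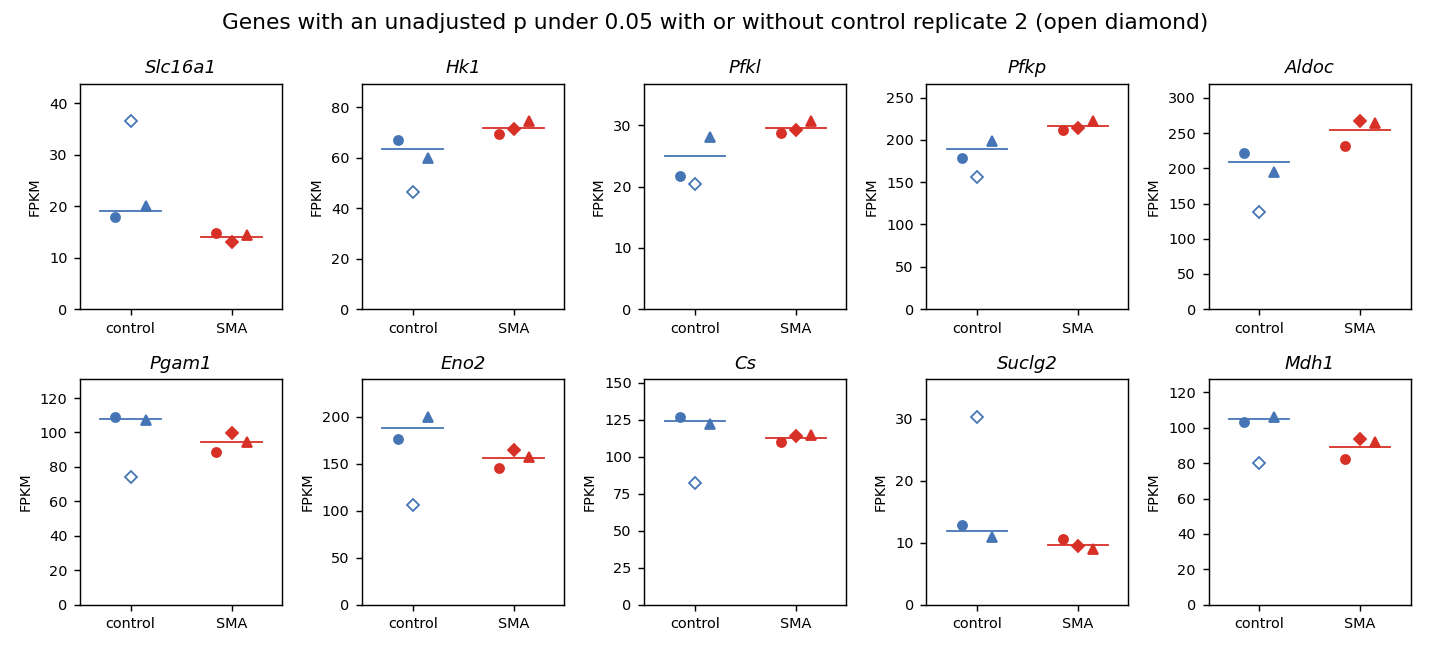
FPKM in each library for the 10 genes called with or without control replicate 2 (blue, control; red, SMA; open diamond, control replicate 2); lines are the mean of control replicates 1 and 3 and the mean of the 3 SMA libraries. Slc16a1 and Suclg2 had their highest value in control replicate 2 (36.5 and 30.3 FPKM), and the other 8 genes their lowest.

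Lactate dehydrogenase showed no difference between the groups apart from control replicate 2. The enzyme is built from the A subunit (Ldha), abundant in glycolytic tissue, and the B subunit (Ldhb), abundant in oxidative tissue. Ldha was at 120, 289 and 113 FPKM in the controls and at 122, 109 and 115 FPKM in SMA, so that control replicate 2 was 2.48 times the mean of the other controls. Ldhb was at 178, 93.0 and 161 FPKM in the controls and at 162, 171 and 173 FPKM in SMA, and here control replicate 2 was 0.548 times the others, the lowest such ratio of the 36 genes. The log2 fold changes were -0.45 for Ldha and 0.28 for Ldhb over all libraries and -0.02 and -0.01 without control replicate 2, none of them called.

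None of the 5 genes of pyruvate entry was called, with or without control replicate 2. The pyruvate dehydrogenase complex turns pyruvate into acetyl-CoA, with Pdha1 and Pdhb as the subunits of its first enzyme, Dlat as the acetyltransferase and Dld as the dehydrogenase it shares with the 2-oxoglutarate complex. Pdha1 was at 71.6, 49.2 and 64.8 FPKM in the controls and at 67.6, 71.9 and 73.8 FPKM in SMA, with log2 fold changes of 0.21 and 0.06. Those of Pdhb were 0.06 and -0.11, those of Dlat 0.18 and -0.05 and those of Dld 0.02 and 0.0. Pcx, pyruvate carboxylase, makes oxaloacetate from pyruvate and is abundant in liver, where it starts gluconeogenesis, and in astrocytes. It was at 10.9, 61.8 and 12.1 FPKM in the controls and at 12.2, 11.5 and 12.3 FPKM in SMA. Control replicate 2 was 5.38 times the mean of the other controls, the highest such ratio of the 36 genes, and the log2 fold change was -0.72 with it and 0.06 without it.

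The 12 genes grouped here under the TCA cycle include the cytosolic Mdh1. None of the 12 was called over all libraries. Without control replicate 2 Cs, Suclg2 and Mdh1 were called lower (3 of 12, against 5.2% of all genes) and none higher. The median log2 fold change was 0.1 and 0.0. Cs, citrate synthase, was at 127, 82.1 and 122 FPKM in the controls and at 110, 114 and 115 FPKM in SMA. The groups overlapped with control replicate 2, at a log2 fold change of 0.06. They did not without it, at -0.14 (limma, standard error 0.05 and adjusted p = 0.446). This call ended without control replicate 1 (-0.11), without each SMA replicate (-0.12, -0.14 and -0.15), with library weights (-0.13) and with the replicate block (-0.14). Mdh1, the cytosolic malate dehydrogenase of the malate-aspartate shuttle, was at 103, 80.0 and 106 FPKM in the controls and at 82.3, 93.4 and 92.1 FPKM in SMA, with log2 fold changes of -0.1 and, without control replicate 2, -0.23 (limma, standard error 0.07 and adjusted p = 0.366). The call was kept in all 8 other settings and ended without control replicate 3 (-0.2). Mdh2, the mitochondrial enzyme of the cycle itself, was at 148, 105 and 142 FPKM in the controls and at 138, 150 and 154 FPKM in SMA, with overlapping groups and log2 fold changes of 0.17 and 0.02.

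Succinyl-CoA ligase joins the shared subunit Suclg1 to either Suclg2, which makes GTP, or Sucla2, which makes ATP. Suclg2 was at 12.8, 30.3 and 10.9 FPKM in the controls and at 10.6, 9.57 and 9.0 FPKM in SMA. All SMA values were below all control values, although SMA replicate 1 and control replicate 3 nearly met, and control replicate 2 was 2.55 times the mean of the other controls. The log2 fold change was -0.69 (standard error 0.35, not called) and -0.26 without control replicate 2 (limma, standard error 0.11 and adjusted p = 0.454), a call that ended without control replicate 1 (-0.16), SMA replicate 2 (-0.25) or SMA replicate 3 (-0.21), with library weights (-0.28) and with the replicate block (-0.25). Suclg1 was also lower in every SMA library than in every control, with log2 fold changes of -0.25 and -0.1 that were not called. Sucla2 had overlapping groups, at 0.08 and 0.02.

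The other TCA cycle genes were not called in either comparison. The subunits of isocitrate dehydrogenase had log2 fold changes of 0.12 and -0.05 (Idh3a), 0.17 and 0.08 (Idh3b) and 0.14 and 0.09 (Idh3g). Those of the 2-oxoglutarate dehydrogenase complex had 0.14 and -0.01 (Ogdh) and 0.09 and 0.08 (Dlst), and fumarase (Fh1) had 0.12 and 0.13. Idh3b and Dlst were higher in all 3 SMA libraries than in all 3 controls, by small amounts, with Idh3b at 51.8, 43.1 and 52.7 FPKM in the controls and 54.5, 55.2 and 56.3 FPKM in SMA.

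Ratios between isozymes or alternative subunits within a library do not depend on how that library was scaled. Of 10 ratios, 3 did not overlap between the groups over all libraries, Aldoa to Aldoc, Suclg2 to Sucla2 and Pklr to Pkm. Aldoa was 1.37, 1.27 and 1.58 times Aldoc in the controls and 1.25, 1.13 and 1.14 times in SMA, a difference in log2 ratio of -0.26 (p = 0.1 in an exact permutation test of both sides, its floor) and of -0.33 without control replicate 2 (exact p = 0.1). Aldoa exceeded Aldoc in all 6 libraries, by less in SMA, and without control replicate 3 the difference was -0.17. Suclg2 was 0.333, 0.896 and 0.288 times Sucla2 in the controls and 0.286, 0.236 and 0.232 times in SMA, a log2 difference of -0.82 (exact p = 0.1) and of -0.31 without control replicate 2 (exact p = 0.2). Pfkl was 0.43, 0.614 and 0.503 times Pfkm in the controls and 0.562, 0.526 and 0.57 times in SMA, and Pfkp was 3.52, 4.71 and 3.56 times Pfkm in the controls and 4.14, 3.86 and 4.12 times in SMA. Both overlapped over all libraries, at log2 differences of 0.11 (exact p = 0.6) and 0.05 (exact p = 0.8), and did not without control replicate 2, at 0.25 and 0.19 (exact p = 0.1 for each). The direction turned when control replicate 1 was left out instead, at -0.01 for Pfkl to Pfkm and -0.02 for Pfkp to Pfkm, and for Pfkp to Pfkm also without control replicate 3 (-0.01).

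Pklr was 0.00927, 0.0912 and 0.00385 times Pkm in the controls and 0.00199, 0.00215 and 0.0024 times in SMA, a log2 difference of -2.77 (exact p = 0.1) and of -1.46 without control replicate 2 (exact p = 0.1). Pklr was under 1 FPKM in 4 of the 6 libraries, and with 1 FPKM added to both genes the difference over all libraries was -1.74. The remaining ratios overlapped between the groups. Ldha was 0.676, 3.11 and 0.701 times Ldhb in the controls and 0.754, 0.639 and 0.664 times in SMA, and the log2 difference was -0.73 with control replicate 2 (exact p = 0.5) and -0.01 without it (exact p = 1.0), and -1.11 when control replicate 1 was left out instead. The difference for Eno1 to Eno2 went from -0.08 to 0.15 and for Hk2 to Hk1 from -0.06 to 0.28 when control replicate 2 was left out. The first was -0.25 without control replicate 3, and the second -0.29 without control replicate 1 and 0.08 without SMA replicate 3. Of the 10 ratios 8 are shown. Adjusted over all 10, the smallest p was 0.333 over all libraries and 0.25 without control replicate 2.

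**Figure D5:**
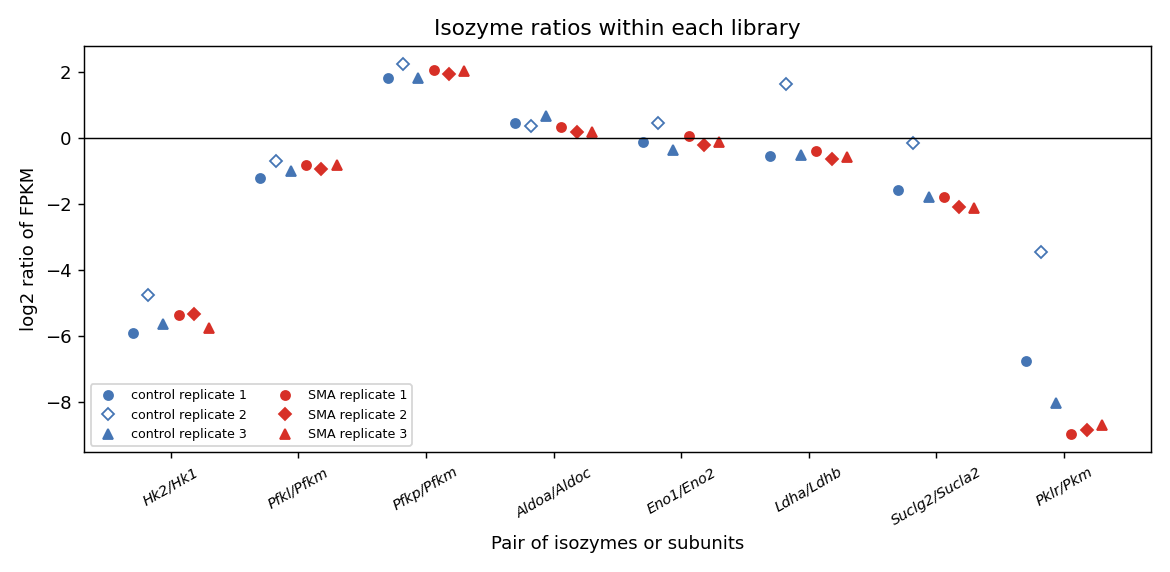
Log2 ratio of the FPKM of 2 isozymes or subunits within each library (blue, control; red, SMA; the open diamond is control replicate 2). Control replicate 2 has the highest ratio of the 6 libraries in 7 of the 8 pairs shown, with Ldha to Ldhb at 1.63 against -0.65 to -0.41 in the other libraries.

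Summed, liver isozymes and gluconeogenic enzymes were low except in control replicate 2. Of the 12 genes of liver isozymes and gluconeogenesis, all listed, 11 were tested over all libraries and none was called, at a median log2 fold change of -1.49. Some of these 11 passed the filter only through control replicate 2, so this median is not read as a difference between the groups. Without control replicate 2 only 6 passed the filter and 1 of them was called lower (Pklr; 5.2% of all genes were), at a median of 0.05. They summed to 754 FPKM in control replicate 2, against 15.9 to 20.0 FPKM elsewhere.

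The enzymes of gluconeogenesis had the same pattern. Fbp1, fructose bisphosphatase, was at 0.389, 188 and 0.626 FPKM in the controls and at 0.444, 1.02 and 0.727 FPKM in SMA. Pck1, phosphoenolpyruvate carboxykinase, was at 0.465, 141 and 0.429 FPKM in the controls and at 0.361, 0.951 and 0.224 FPKM in SMA. G6pc, glucose phosphatase, was at 0.119, 45.9 and 0.159 FPKM in the controls and at 0.196, 0.162 and 0.0836 FPKM in SMA. These 3 genes, which release glucose from liver, were more than 100 times as high in control replicate 2 as in any other library. None was called over all libraries, at log2 fold changes of -2.13 (Fbp1), -2.17 (Pck1) and -1.78 (G6pc). Without control replicate 2 only Fbp1 passed the filter, at 0.19 and not called. Slc2a2, the glucose transporter of liver and pancreas, was at 0.0628, 36.4 and 0.0898 FPKM in the controls and at 0.104, 0.0829 and 0.0549 FPKM in SMA, with a log2 fold change of -1.7 that was not called, and without control replicate 2 it was under the filter.

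Pklr, the pyruvate kinase of liver and red cells, was at 1.96, 12.1 and 0.789 FPKM in the controls and at 0.415, 0.454 and 0.525 FPKM in SMA. All SMA values were below all control values. The log2 fold change was -1.49 and not called over all libraries, and without control replicate 2 it was called, at -0.65 (limma, standard error 0.22 and adjusted p = 0.408). Erythroid markers, given beside it, were not called over all libraries, and without control replicate 2, of 8 tested, 1 was called lower (5.2% of all genes were) and none higher. How far liver or red cell RNA accounts for the values of the shared enzymes in control replicate 2 was not tested. The members highest in that library relative to the other controls were Pcx, Suclg2 and Ldha, and the lowest were Ldhb, Eno2 and Aldoa.

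Companion genes of the pathway were called about as often as all genes. Of 63 genes in 5 further lists, 61 were listed. Over all libraries 57 were tested, with 2 called lower and 1 higher (5.26%, against 5.79% of all genes), and without control replicate 2, of 51 tested, 4 were called lower and 2 higher (11.8% against 10.5%). None of 10 other TCA cycle enzymes was called in either comparison. Their summed FPKM was 378, 381 and 381 in the controls and 358, 387 and 374 in SMA, and their median log2 fold change was -0.04 in both comparisons.

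Among 11 genes of pyruvate and lactate transport and of the regulation of pyruvate dehydrogenase, none was called over all libraries and 1 without control replicate 2 (9.09%, against 10.5% of all genes). This was Pdk4, a kinase that switches the complex off. It was at 0.517, 5.22 and 0.755 FPKM in the controls and at 1.37, 0.953 and 1.15 FPKM in SMA, a log2 fold change of 0.4 without control replicate 2 (limma, standard error 0.16 and adjusted p = 0.451) and of -0.24 with it. Mpc1, a subunit of the mitochondrial pyruvate carrier and the most abundant of this list, was at 72.4, 114 and 68.5 FPKM in the controls and at 61.0, 70.6 and 71.7 FPKM in SMA, with log2 fold changes of -0.29 and -0.06 that were not called. Slc16a7, which encodes the lactate carrier MCT2, was lower in all 3 SMA libraries than in all 3 controls but not called, at -0.52 and -0.25. Slc2a1, the glucose transporter of the endothelium and of glia, was not called either, at -0.12 and -0.19.

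Among 21 regulators and side branches of glycolysis, Pfkfb1 and Aco1 were called lower and Me3 higher in both comparisons, and Gpd2 was called lower without control replicate 2. These are 14.3% of the list over all libraries and 19.0% without control replicate 2, against 5.79% and 10.5% of all genes. Gpd2, the mitochondrial glycerol phosphate dehydrogenase, was at 16.1, 14.9 and 16.6 FPKM in the controls and at 14.0, 13.3 and 13.6 FPKM in SMA (log2 fold change -0.2, and -0.24 without control replicate 2, limma adjusted p = 0.366). Pfkfb1 encodes the liver form of the enzyme that sets the level of a signal to phosphofructokinase. It was at 1.28, 4.44 and 0.972 FPKM in the controls and at 0.637, 0.478 and 0.483 FPKM in SMA (-0.92, and -0.47 without control replicate 2, limma adjusted p = 0.396). For both genes, the SMA libraries were all below the controls. Me3, the mitochondrial NADP-dependent malic enzyme, was at 11.1, 7.78 and 10.2 FPKM in the controls and at 13.0, 12.6 and 12.3 FPKM in SMA (0.36, and 0.23 without control replicate 2, adjusted p = 0.422). Aco1, the cytosolic aconitase that also binds iron-responsive elements, was at 19.7, 24.0 and 19.6 FPKM in the controls and at 15.9, 18.7 and 15.4 FPKM in SMA (-0.32, and -0.23 without control replicate 2, adjusted p = 0.456). Got2, the mitochondrial aspartate aminotransferase and the most abundant of this list, was at 83.1, 110 and 79.9 FPKM in the controls and at 79.4, 77.1 and 81.1 FPKM in SMA, with log2 fold changes of -0.18 and -0.04 that were not called. The median log2 fold change of the 21 genes was 0.01 and -0.05.

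Isozymes of muscle and testis were low throughout. Of 9 genes, 7 were listed (Pgk2 and Gapdhs were not) and none was called, with 4 tested over all libraries and 3 without control replicate 2. Pygm, muscle glycogen phosphorylase and the most abundant of them, was at 6.85, 3.44 and 4.79 FPKM in the controls and at 4.94, 5.72 and 5.67 FPKM in SMA, with log2 fold changes of 0.13 and -0.07. Skeletal muscle markers, 12 of 12 listed and led by Acta1, summed to between 4.02 and 9.98 FPKM, and of 6 tested over all libraries and 5 without control replicate 2 none was called. Of 8 microglia markers, led by P2ry12, none was called, and they summed to 62.7, 81.4 and 61.0 FPKM in the controls and to 63.6, 65.7 and 61.2 FPKM in SMA.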

How the data were processed

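RNA of whole spinal cord, depleted of ribosomal RNA, was measured in 3 libraries labelled SMA and 3 labelled control. FPKM were deposited by the authors, who ran cufflinks per library on hisat2 alignments to mm10; versions and annotation are not given in the sources used here, nor whether strand was used in counting. Genes absent from a file were set to 0. Genes whose mean reached 0.5 FPKM were compared on log2(FPKM + 1) with lmFit and eBayes (trend) of limma 3.58.1 in R 4.3.3, with no covariate, on both sides, with Benjamini-Hochberg adjustment across every tested gene, with and without control replicate 2. The procedure was tested on simulated data. Isozyme ratios were compared by an exact two-sided permutation test. Near-identical genes were sought with blastn 2.17.0 in GENCODE transcripts on GRCm38, whose gene spans equal those in the files for 20 of the 36 genes. Values in every library are given for called members and companions, the most abundant gene of each role and of some marker lists, the 3 members highest and the 3 lowest in control replicate 2 relative to the other controls, and genes of liver metabolism; Idh3b and Hoxd10 were added after their values were seen. Some planned results are left out of the text. Members and lists were chosen with earlier results of these data known. Alternatives were other pseudocounts, filters and scalings, library weights, a replicate block and leaving out each library.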

Additional observations from a re-analysis of the deposited data

How the results depend on the processing

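Over all libraries, members called lower stayed at 1 in all 8 other settings and ran from 0 to 6 with a library left out; those called higher ran from 0 (same total) to 4 (library weights), and from 0 to 4 with a library left out. Without control replicate 2, where alternatives and sums with near-identical genes were chosen after the data were seen, 4 to 8 members were called lower and 1 to 4 higher (1517 of all genes lower with libraries at the same total). Leaving out a further SMA library gave 4 to 6 lower and 1 to 3 higher. Of all genes, calls over all libraries with a library left out ran from 125 to 862 lower and from 214 to 1040 higher, and library weights gave 619 lower, no filter 882 higher. Without control replicate 2 they ran from 533 to 1368 lower and from 524 to 1437 higher, with 0 to 43 at an adjusted p under 0.05. With a library left out the member median ran from 0.01 to 0.17, and without control replicate 2 from -0.03 to 0.03; over the other settings it ran from 0.02 to 0.15, and without control replicate 2 from -0.05 (same total) to 0.01. Reversed were Eno2 (-0.27) and Cs (-0.14) without control replicate 2. With a library left out Eno2 ran from -0.27 to 0.18. Without control replicate 2, Gapdh ran from -0.26 (control replicate 1 as the only control) to 0.3 (control replicate 3 as the only control). Over all libraries Gapdh was called higher without control replicate 1 (0.32). Other calls appeared only in alternatives. Over all libraries these were Hk1 without control replicate 1 (0.44) and with library weights (0.2), and Suclg2 without control replicate 3 (-0.96). Pfkp was called without control replicate 3 (0.37), with library weights (0.21) and after median-ratio scaling (0.23). Without control replicate 2, Pdhb was called at the same total (-0.16). Eno1 was called there at the same total (-0.18), after quantile normalization (-0.16) and without SMA replicate 1 (-0.15). With control replicate 1 as the only control, Gpi1 was at 0.27 and Eno1 at -0.15. Whether replicate numbers pair samples is not known. After removal of group means, r between equal numbers was -0.04, 0.02 and 0.08 for replicates 1 to 3. Control replicate 2 entered the mean of the controls, so its difference from the other controls weighs on these values. They cannot show that pairing is absent. With the replicate as a block, 303 genes were called lower and 356 higher, and 554 and 552 without control replicate 2. Differences in log2 ratio with a library left out ran from -0.33 to -0.17 (Aldoa to Aldoc), -1.13 to -0.31 (Suclg2 to Sucla2), -3.74 to -1.46 (Pklr to Pkm, -1.74 with 1 FPKM added to both), -0.01 to 0.25 (Pfkl to Pfkm) and -0.02 to 0.19 (Pfkp to Pfkm). With 3 libraries per group, 1 of them unlike the rest, and no sign that replicates are separate animals, small differences cannot be resolved, and FPKM cannot show protein, enzyme activity or flux.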
